A study of Dreissena polymorpha with 10 samples.

Results

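The comparison of September with February in zebra mussels (Dreissena polymorpha) rests on 6 of the 10 arrays of the series. They are the 4 arrays titled September (2 female, 2 male) and the 2 titled February (1 female, 1 male), chosen by title alone. All were wild mussels of Riba-Roja on the Ebro River, sampled as part of the body, with no organ and no treatment named, and the labels place February before spawning and September at gonad resorption. The 4 June arrays (2 per sex, spawning) entered the model only to estimate the spread between arrays. The labels give neither the age of the mussels nor the number pooled for an array. The design text speaks of 2 biological replicates per season, and the p-values therefore cover only how far these arrays differ.

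The zebra mussel is a freshwater bivalve with separate sexes that sheds eggs and sperm into the water. Its gonads grow and mature before spawning, and in resorption the gametes left over are broken down and taken up again. In RNA from such a sample, fewer cells of a type and less RNA per cell cannot be told apart, and month and reproductive stage cannot be told apart either.

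Mean processed signal was 8138 to 9774 on 5 of the 6 compared arrays and 766.3 on September female replicate 2, where 3062 probes were above background against 4129 to 4921 on the other 5. Both February arrays and replicate 1 of each September sex lay on slide 1, whereas September male replicate 2 and September female replicate 2 lay on slides 2 and 3 with another scan date. Title, source and sex label give 1 February array as female and 1 as male, while the codes in their descriptions end in the letter of the opposite sex. The mean over both sexes is the same under either reading, and the values given by sex follow the titles. The SD between spots of the same probe was taken on the log2 scale, as a median over all probes with many spots. It was 0.348 on the February male array, against 0.118 to 0.212 on the other 9 arrays.

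Every level below is a relative log2 signal: the log2 processed signal of a probe minus the 75th percentile of its array, taken over the 2738 probes above background on all 10 arrays. A difference of 1 is a doubling. A probe was called when its adjusted p was under 0.05 in limma with Benjamini-Hochberg adjustment over 5139 tested probes. The probes carry sequence accessions without gene names, apart from 6 probes named RXR, and 0 accessions matched the RefSeq gene table. Neither gene function nor the labelled tissue could therefore be checked against markers, and transcripts are given by accession. The 4 named accessions are those with the largest median change among accessions with at least 2 tested probes, all of them called in 1 direction, and no overlap of the months within either sex for the brightest probe.

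Transcripts rose and fell from February to September, and with the scaling used here more were called higher than lower. Of the 5139 tested probes 377 were called (7.34%), 248 higher (4.83%) and 129 lower (2.51%) in September. The fitted log2 fold change of the higher probes had a median of 2.42, and that of the lower probes -2.24. With each probe that was not above background in a whole month set to its bound, the medians were 2.17 and -2.07. Probes above background on only some arrays of a month kept their signals in these medians. For the called probes above background on all 6 arrays the medians were 2.26 and -1.68. Among the probes above background on all 6 arrays, 146 were higher by 1.08 to 4.26 on the log2 scale and 31 of these by over 8-fold. Of the 64 lower ones, 5 changed by over 8-fold, and their changes had sizes from 1.17 to 5.02.

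**Figure D1:**
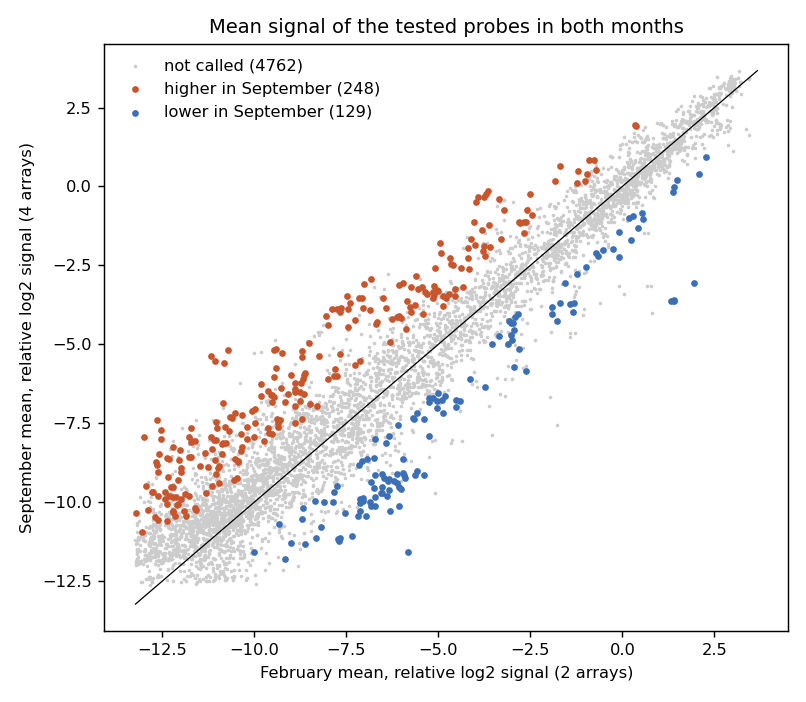
Mean relative log2 signal of each tested probe in February (2 arrays, horizontal axis) and September (4 arrays, vertical axis), with the line of equal signal. The 248 probes called higher (orange) lie above the line and the 129 called lower (blue) below it.

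The balance of rises and falls depended on how the arrays were scaled to each other. Over all tested probes the median log2 fold change was 0.21, and 59% of them were higher in September. With the percentile taken over all probes that median was -0.26, with 33 probes called higher and 54 lower. Quantile normalization gave 93 higher and 113 lower with a median of -0.05, and the authors' deposited values gave 157 higher and 137 lower with a median of 0.04. The direction of the balance therefore does not hold under every scaling. The percentile over all probes moves every probe by the same amount, less than the smallest called change of 1.08, and so could turn none. With quantile normalization 0 of the 377 turned, and with the authors' values 0 of the 371 covered.

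Transcript EY435962 ranked first among the rising accessions by the naming rule. Its brightest probe lay at -11.1 on the February female array and -11.3 on the February male array. On the September arrays it lay at -6.64 and -3.60 in females (replicates 1 and 2) and at -6.03 and -5.17 in males. The lowest September value exceeded the higher February value by more than 4 on the log2 scale, so the months do not overlap, and the dim array, September female replicate 2, is the highest of the 4. The probe was not well above background on either February array and was on all 4 September arrays, so it rose at least 45.3-fold (adjusted p = 0.0244). That bound leans on the dim array: without September female replicate 2 it was 26.8-fold, and without September female replicate 1 it was 76.8-fold. The accession has 5 probes on the array, of which only 3 were above background on at least 2 arrays and so were tested. The other 2 tested probes were also called, and they were above background on no February array and at least 45.0-fold and 36.3-fold higher in September. In June the same probe stood at -8.70 ± 0.41 (SD, n = 4), between the other months.

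A rise of similar size was measured for EY434967. Its brightest probe read -11.9 and -10.2 on the February female and male arrays. In September it read -5.01 and -5.47 in females and -6.32 and -5.36 in males, which sets all 4 September arrays above both February arrays. It was above background on 0 of 2 February and 4 of 4 September arrays and was at least 33.1-fold higher in September (adjusted p = 0.0155). The February arrays differ by more than the September ones (SD 1.2, n = 2, against 0.55, n = 4), and the SE of 0.423 does not include that difference. Leaving out 1 of the compared arrays at a time moved the bound to between 25.7-fold and 42.5-fold, both extremes coming from the February arrays. Each of these bounds kept both September sexes. All 4 tested probes were called and none was above background in February, and the bounds of the other 3 were 2.97-fold, 7.67-fold and 11.1-fold. In June its level was -6.51 ± 0.57 (SD, n = 4), between the other months and nearer to September.

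AY070165 ranked first among the falling accessions by the same rule, which leaves out accessions with a tested probe that was not called. Its brightest probe stood at -5.98 on the February female and -4.78 on the February male array. In September it was at -8.42 and -9.89 in females and at -8.79 and -9.50 in males. Every September array lay below both February arrays, and 3 of the 4 were above background, the exception being September female replicate 2. The lowest signal above background on that array was -8.32, so its -9.89 is not an exact level. September minus February was -3.77 with an SE of 0.481 (adjusted p = 0.0205). This is a 13.6-fold difference of means that includes the -9.89, so the fold is not exact. The 4 tested probes ranged from -3.77 to -2.95, all called. Its June level was -4.50 ± 0.24 (SD, n = 4), at or above the February values. Normexp background correction gave -2.31 (adjusted p = 0.16) for this probe.

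AF508222 also fell, with all 6 of its probes tested and called. The brightest read -7.08 and -6.39 on the February female and male arrays. In September it read -10.1 and -10.3 in females and -10.2 and -9.93 in males, again with no overlap. September minus February was -3.41 with an SE of 0.291 (adjusted p = 0.0155), and the 6 probes ranged from -3.95 to -3.41. On September female replicate 2 the probe was not above background, and 4 of the 6 probes were above background on no September array. Those 4 were at least 6.04-fold to at least 7.72-fold lower in September. With normexp background correction the brightest probe changed by -1.03 (adjusted p = 0.65), so the size of this fall depends on the background correction. Normexp added the same offset of 50 on every array, which weighs more on the dim September female replicate 2. The part of that array in the smaller change was not tested. The June level of AF508222 was -4.23 ± 0.49 (SD, n = 4), above both February arrays.

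AF508224 falls outside that rule because 1 of its 5 tested probes was not called, and it is named here after its values were seen. All 5 probes were above background on all 6 arrays. The probe with the largest change read 0.11 on the February female and 2.69 on the February male array. In September it read -2.71 and -4.94 in females and -3.04 and -3.81 in males, below both February arrays. The 4 called probes had log2 fold changes of -5.02 to -4.95, about 31.0-fold to 32.5-fold (adjusted p = 0.017 to 0.0212), larger than those of AY070165 and AF508222. The fifth and brightest changed by -0.91 (SE 0.224, adjusted p = 0.0674), so probes of this accession disagree. In June the first of these probes stood at 2.99 ± 0.17 (SD, n = 4).

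**Figure D2:**
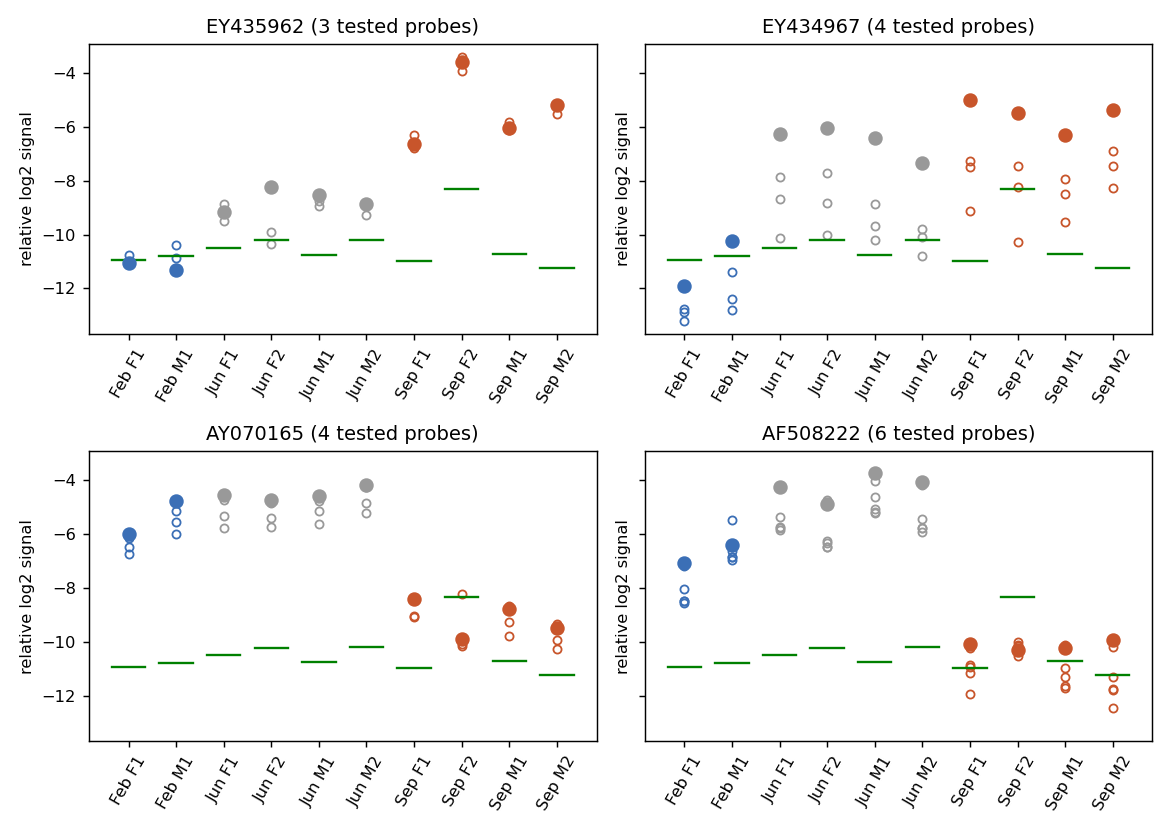
Relative log2 signal of the 4 named accessions on all 10 arrays (F female, M male, with the replicate number; February blue, June grey, September orange). Filled points are the brightest probe, open points the other tested probes, and green bars the dimmest signal on that array that was still above background; the rising accessions sit near or below the bar in February, where none of their probes was flagged above background on every spot, and AF508222 sits near it in September.

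The June levels of the called probes differed between the rises and the falls. The mean of the 4 June arrays lay between the February and September means for 217 of the 248 higher probes but for 47 of the 129 lower ones. No such count was made over all tested probes, so these counts have no background share to be read against. The median level of the higher probes was -8.97 and -8.87 on the February arrays, -8.04 to -7.88 in June and -6.52 to -5.86 in September. That of the lower probes was -5.75 and -5.41 in February, -5.40 to -4.26 in June and -8.12 to -7.52 in September, so as a group the lower probes stood as high in June as in February or higher. The median of all tested probes was -6.98 and -7.16 on the February female and male arrays, -6.90 to -6.67 in June and -7.02 to -6.54 in September. The June levels are given as a description, without a test.

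The calls themselves depended on how the spread was estimated. With 1 February array per sex, the model had 4 residual and 1.65 prior degrees of freedom, all from the June and September pairs, and the February arrays were assumed to vary like them. No probe was called when the June arrays were left out (in limma 982 had an unadjusted p under 0.05, compared with 1303 in the reported fit). The same held with slide (1224), scan date (1086) or replicate number (1040) as a block. Leaving out the February female array, the February male array, either June male array or September male replicate 2 also gave 0 calls (905 to 1172 at an unadjusted p under 0.05). Without September male replicate 1 there were 13, without either June female array 146, without September female replicate 1 there were 559, and without the dim September female replicate 2 there were 286.

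Fitted fold changes moved less than calls; those of EY435962 and EY434967 are set against February signals not above background and are given only to show how far they moved. A fit without a February array compared the months in the other sex only. Such fits set both ends of the ranges of EY434967, AY070165 and AF508222. Over the 10 fits that each left out 1 array, EY435962 ranged from 5.06 to 6.58, EY434967 from 4.39 to 6.68, AY070165 from -4.36 to -3.17 and AF508222 from -3.69 to -3.12. The first kept its call in 2 of the 10, the second in 5, and the other pair in 4 each. Over all 24 alternatives they were called in 9, 13, 11 and 10, with adjusted p-values of 0.00229 to 0.65. Within slide 1 (September replicate 1 of each sex against February), their log2 fold changes were 4.84, 5.41, -3.22 and -3.42 (adjusted p = 0.09 for each), and the September arrays of the other slides gave 6.79, 5.66, -4.31 and -3.39. The median over the 248 higher probes was 2.30 within slide 1 and 2.51 with the other slides, and over the 129 lower ones -2.04 and -2.20. These probes were chosen with both sets of arrays, so their direction there is no separate test.

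**Figure D3:**
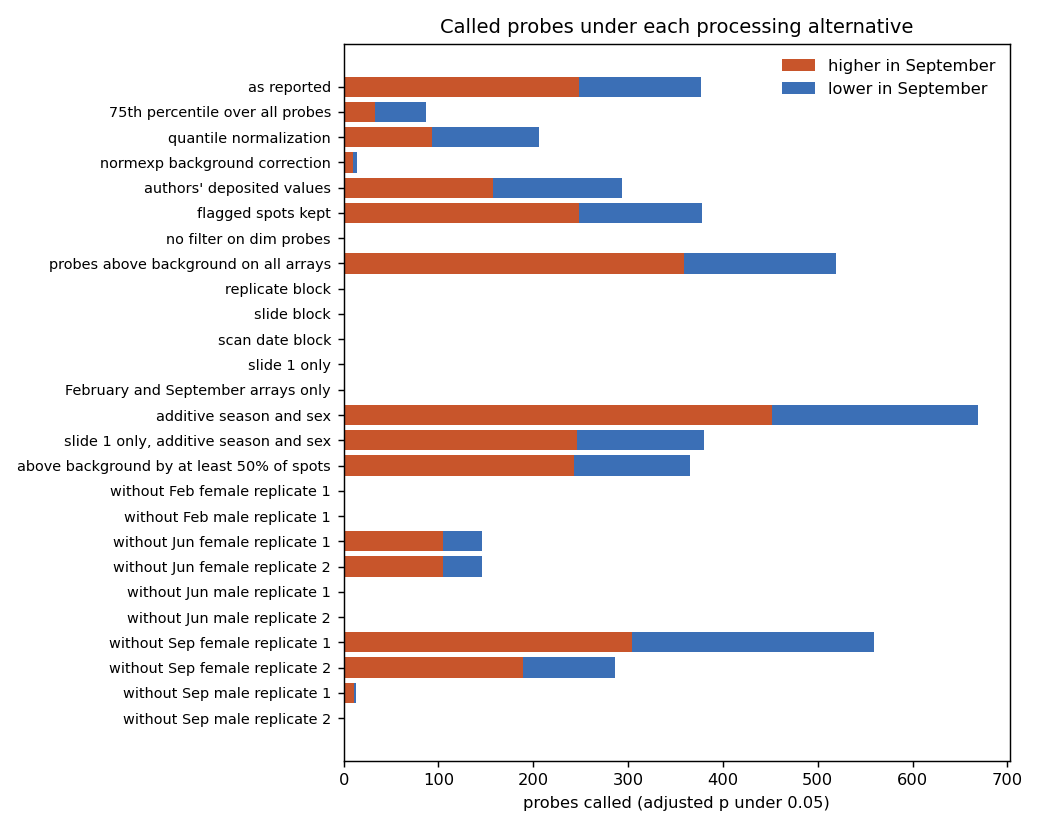
Number of probes called higher (orange) or lower (blue) in September in the reported fit and in each alternative. Bars run from 0 to 669, and an empty line is an alternative with 0 calls.

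The changed probes belong to 219 accessions. A probe was called higher in 152 of them and lower in 67, and in 0 accessions were probes called in both directions. Among 1426 accessions with at least 2 tested probes, 24 had every tested probe called higher and 16 had every one called lower. Of the 185 such accessions with a called probe, 92.4% had log2 fold changes of 1 sign over all their tested probes, against 68% of the 1426. The 185 were chosen for holding a probe with a large change, which favours 1 sign, so the higher share is no separate support. Probes of 1 accession also share their RNA and their arrays and are not separate replicates. Their log2 fold changes spanned a median of 0.65 in accessions with a call and 0.59 over all 1426, less than the smallest called change.

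A share of the changes lay between a measurable signal in 1 month and background in the other. Of the 248 higher probes, 146 (58.9%) were above background on all 6 arrays, with a median log2 fold change of 2.26, while 70 were above background on neither February array. For 69 of these the September signal exceeded the February bound, by at least 1.22-fold to at least 45.3-fold, and 29 had bounds of over 4-fold. Among the 129 lower probes, 64 were above background on all 6 arrays, with a median of -1.68. A further 9 were above background on no September array, with bounds from 1.24-fold to 7.72-fold. Over the 2798 probes above background on all 6 arrays, 210 (7.51%) were called and 74.5% changed by less than 1 on the log2 scale.

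Calls were most frequent at intermediate signal. The probes were ranked by mean signal over all 10 arrays and divided into 4 equal classes. The dimmest class had 52 probes called higher and 2 lower. The next had 83 and 49, the third 86 and 54, and the brightest 27 and 24. The median absolute log2 fold change was 0.81, 0.85, 0.70 and 0.36 from the dimmest to the brightest class, and the median SE fell from 0.903 to 0.278. The dimmest class is shaped by the filter, which needs a probe above background on 2 arrays of any month, and September has 4 arrays to February's 2. Of its 1284 probes, 646 were above background in September but on neither February array and 106 in February but on no September array. Its 52 rises against 2 falls are therefore no measure of the balance, and 48 of the 52 were above background on neither February array.

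Rises and falls were spread unevenly over the accession series, that is, over the letters that open an accession. These letters are database prefixes and do not tell what a sequence encodes. The EY series holds most of the tested probes (3803), and in it 206 were called higher and 60 lower. In the AJ series of 370 probes 24 were higher and 17 lower, and in the AM series of 828 probes 15 were higher and 28 lower. The AF, AY and DQ series, which were picked out after their values were seen, together have 69 tested probes of 21 accessions. Of these probes 24 (34.8%) were called lower and 0 higher, against 2.51% lower over all tested probes, and they belong to 8 accessions that include AY070165, AF508222 and AF508224.

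The median level of those 24 probes was -6.99 on the February female array and -6.08 on the February male array. In September it was -9.63 and -10.1 in females and -9.94 and -10.1 in males. The probes were chosen as called lower on these arrays, so this gap is a description. Single probes had log2 fold changes of -5.02 to -1.17, with a median of -3.46. The other 45 tested probes of the 3 series ranged from -3.46 to 2.96 and were not called. All 24 were brighter on the February male than on the February female array, against 44.7% of all tested probes. They are probes of 8 accessions and not separate transcripts. In June their median was -5.65 to -5.10, above February.

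**Figure D4:**
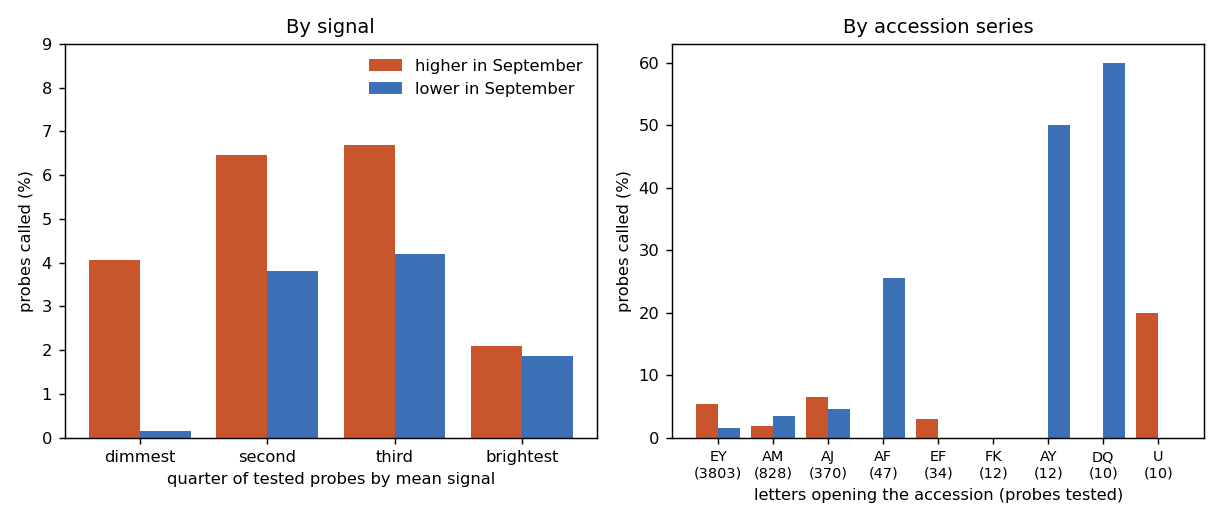
Percentage of tested probes called higher (orange) or lower (blue) in September, by class of mean signal (left) and by accession series with at least 10 tested probes (right, number tested in brackets). The dimmest class has 52 rises and 2 falls, and the AF, AY and DQ series have falls and no rises.

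RXR is the symbol of the retinoid X receptor, a nuclear receptor that pairs with other nuclear receptors to switch target genes on ligand binding. Of its 6 probes 2 were bright enough to be tested, both above background on 2 of 2 February and 3 of 4 September arrays. The first lay at -10.2 and -10.5 on the February female and male arrays, and at -10.3 and -10.6 in September females and -10.5 and -10.7 in September males. Its months overlap, and September minus February was -0.16 on the log2 scale (SE 0.344, adjusted p = 0.83). The second lay at -10.3 and -9.73 in February and between -10.5 and -9.03 in September, again with overlap, and September minus February was 0.04 on the log2 scale (SE 0.46, adjusted p = 0.97). Neither probe passed the test in any of the 24 alternatives, over which the first ranged from -1.03 to 0.51 and the second from -0.60 to 0.55. A p that misses the threshold does not show equal levels, and both probes lay near background.

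The same transcripts moved in the same direction in females and males in nearly every case. Of the 377 called probes 374 had the same sign in both sexes, against 69.6% of all tested probes; calls rest on the mean of the sexes, which favours such probes. The median log2 fold change of the higher probes was 2.43 in females and 2.46 in males, and that of the lower probes -2.16 and -2.29. The fitted log2 fold change of EY435962 was 5.93 in females and 5.70 in males, and the corresponding values were 6.68 and 4.39 for EY434967, -3.17 and -4.36 for AY070165, and -3.12 and -3.69 for AF508222. A test of the difference between the sexes called 0 probes in limma, with 239 (4.65%) at an unadjusted p under 0.05 and a lowest adjusted p of 0.49. Of the 377 called probes, 41 had an unadjusted p under 0.05 in this test, a larger share than over all tested probes. The test also called 0 in each of its 22 alternatives, including the exchange of the February sexes. The SE of such a difference had a median of 0.84 over all tested probes, against 0.42 for the difference between the months. In the called probes it had a median of 0.69.

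The 3 called probes with opposite signs in the sexes are named here after their values were seen. A probe of EY434173 was at -10.7 on the February female and -6.55 on the February male array, against -10.3 and -10.0 in September females and -11.7 and -13.2 in September males, and was brighter in June (-3.73 to -2.25). It was above background on 1 of 2 February and 1 of 4 September arrays, so no exact fold is given. Both September male values lay under the lowest signal above background of their arrays (-10.7 and -11.3). The log2 fold change of the EY436961 probe, above background on all 6 arrays, was -2.45 in females and 0.08 in males. That of the EY436310 probe was -0.01 in females and 2.50 in males, and it was above background on 1 of 2 February and 3 of 4 September arrays. In none of the 3 did the difference pass the test (adjusted p = 0.89 to 0.92), and each rests on 1 February array per sex.

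**Figure D5:**
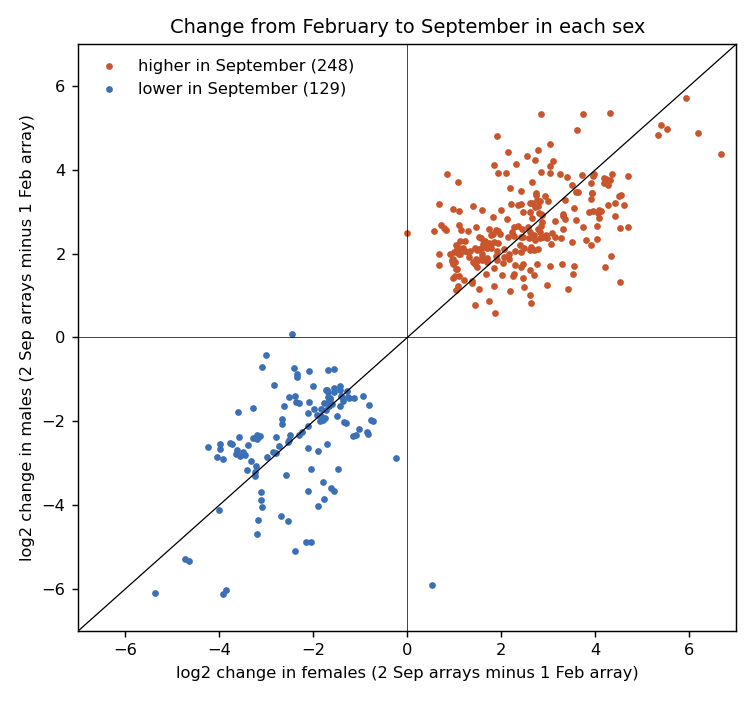
Log2 fold change from February to September in females (horizontal axis) and males (vertical axis) for the 377 called probes, each the mean of 2 September arrays minus 1 February array. The line marks equal change; 374 probes lie in the lower left or upper right field.

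The February arrays differed from each other more for the probes that fell than for those that rose or over all tested probes. Among the 129 lower probes 86 were brighter on the February male array, with a median difference, male minus female, of 0.51. Among the 248 higher probes 112 were brighter there (median -0.08), and over all tested probes 44.7% were (median -0.07). The 129 lower probes belong to 67 accessions, and 24 of those 86 are the AF, AY and DQ probes of 8 accessions. Probes of 1 accession share their RNA, so these counts are not of separate transcripts. The absolute difference between the February arrays had a median of 0.69 in the lower and 0.55 in the higher probes. Over all tested probes it was 0.46, the same size as that between the September males (0.46) and smaller than that between the September females (0.75), which include the dim array. The absolute February difference exceeded the change between the months in 8 of the higher and 6 of the lower probes. The part of sex, array and animal in the February difference was not tested.

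Without overlap of any array, the 4 September values lay on 1 side of the 2 February values for 1838 of the 5139 probes (35.8%). This held for 245 of the 248 higher and 126 of the 129 lower probes, which the test had chosen on the same arrays.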

How the data were processed

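Cy3-labelled RNA was hybridised to 1-colour Agilent arrays, per the labels' protocols. Per the file headers, Feature Extraction 10.5.1.1 by Agilent gave each spot a processed intensity, corrected for background within its array and not scaled between arrays. A value table deposited beside the scanner files holds log2 values. Its direction is that of the signal, but its scaling and centring stay unknown; it correlated at 0.988 or higher with the log2 processed signal of each array and had column medians of 2.74 to 3.02. The files hold intensities, not counts, and the number of arrays limits the precision.

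The 536 control spots were left out, and the log2 processed signals of 15208 spots were averaged over 13654 probes, without spots flagged as outliers where another remained. Each array was scaled to its 75th percentile over the probes above background on all 10 arrays, as planned for the case that under 50% of probes were above background. Probes above background on at least 2 arrays were tested, and 62.4% were not. Above background means the scanner software's flag on every spot used. No spot was saturated. limma 3.58.1 (R 4.3.3) fitted 6 season-by-sex means to all 10 arrays, and the contrast weights the sexes equally. The fit was tested on simulated arrays that gave a probe the same spread in every month. That test cannot check whether the February arrays vary like the others. A fold written "at least" sets the brighter month's mean against, per array of the other month, the higher of the probe's signal and the lowest signal above background. Normexp used median spot signals with an offset of 50, because the files used hold no mean signal. Planned gene lists could not be applied without gene names. The comparison, members and lists were chosen with earlier results of these data known. Figures were drawn with matplotlib 3.10.9.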

Additional observations from a re-analysis of the deposited data

How the results depend on the processing

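The 377 calls for September against February stayed within 1.5 times that number in 7 of 25 alternatives: the authors' values, flagged spots kept, probes above background on all arrays, detection by 50% of spots, slide 1 with additive season and sex, and without either September female array. With only the 2738 probes above background on all arrays tested, 519 were called, a larger share than 377 of 5139. The count was 87 with the percentile over all probes, 206 with quantile normalization, 14 with normexp and 669 with additive season and sex. In limma it was 0 with no filter on dim probes (994 at an unadjusted p under 0.05), the replicate block, the slide block, the scan date block, slide 1 only (1224), and February and September arrays only. Leaving out 1 array gave 0 to 559. Normexp moved the median of all tested probes to 0.56 and turned 5 of the 377 probes. It also moved the median difference between the sexes from -0.07 to 0.74. Its offset is the same on every array and weighs more on the dim September female replicate 2. Without the February female or the February male array, where only the other sex was compared, 1 or 2 turned. In every other alternative 0 of the 377 turned (the authors' values covered 371 of them, and the probes above background on all arrays 205). No alternative called a difference between the sexes. Replicate numbers were not treated as pairs, since deviations of same-numbered arrays correlated at -0.327 to 0.343 over 6 pairs of groups. The alternatives on slide 1 with an additive model and on detection by 50% of spots were chosen after the data were seen. A slide or scan date block leaves only the slide 1 arrays to set the fold changes, and the slide block gave the same values as slide 1 only. Leaving out June female replicate 1 or replicate 2 gave the same values, and so did leaving out June male replicate 1 or replicate 2. Such repeats are counted as separate alternatives. In fits without a June array, or without any of them, the fold changes stay and only the spread is estimated anew. The fold changes stay as well with no filter, with only the probes above background on all arrays, and with additive season and sex. None of these fits could turn a probe. The 377 were also chosen for their change on these same arrays. Signals near background limit both directions: 70 of the 248 higher probes were above background on neither February array and 9 of the 129 lower ones on no September array. The lowest signal above background on September female replicate 2 was -8.32 against -11.3 to -10.7 on the other September arrays.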
